A study of Mus musculus with 16 samples.

Results

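The endoplasmic reticulum (ER) unfolded protein response was followed in the cortex through 10 of its best known target genes, which were chosen by symbol: Hspa5, Hsp90b1, Calr, Hyou1, Pdia4, Dnajb9, Sdf2l1, Creld2, Manf and Xbp1. All 10 were found among the 47593 genes of the count table and all 10 passed the filter on low counts, which left 16553 genes to be tested. The libraries came from 5xFAD mice, heterozygous animals on a C57BL/6-SJL hybrid background that carry human amyloid precursor protein and presenilin-1 transgenes with familial Alzheimer's disease mutations under the neuronal Thy1 promoter. Mice of each sex were fed chow with microencapsulated rapamycin, an mTOR inhibitor, or with the carrier alone (vehicle) from 2 to 5 months of age, and the cortex was taken at 5 months. There were 16 libraries, 4 for each sex on each diet, and every group carried the transgenes, so the effect of the transgenes cannot be read from these libraries. Each library held 16393501 to 20593089 read pairs assigned to genes (median 17656718). The labels name each library as a biological replicate and the captions of the study count as many mice per group as there are libraries, while its running text speaks of pooled cortical samples and of fewer mice of each sex. The library labelled male rapamycin 4 held 9935 read pairs of Xist and 0 of Y-linked genes, whereas the other 7 libraries labelled male held 1915 to 2231 Y-linked read pairs, so its reads go against its label.

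When unfolded proteins build up in the lumen of the ER, the membrane sensors IRE1, PERK and ATF6 are released from the chaperone BiP and switch on a shared programme. IRE1 splices the Xbp1 mRNA into the form that encodes an active transcription factor, ATF6 is cut to free another one, and PERK slows translation. The targets raised by XBP1 and ATF6 include the folding chaperones, the enzymes that form disulfide bonds, the co-chaperones of BiP and small secreted stress proteins, all of which are made in most cells, neurons and glia included. In whole cortex, fewer cells of a type and less RNA per cell cannot be told apart, and counts per gene do not separate the spliced from the unspliced Xbp1 mRNA.

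An element that several of these promoters hold is printed first. The ER stress response element (ERSE) is CCAAT and CCACG with 9 bases between them, and it is bound by NF-Y at the first part and by ATF6 or XBP1 at the second part. RefSeq promoters (GRCm38.p6, from 250 bases before to 50 bases after the start of each gene) were found for 8 of the 10 genes, Manf and Hyou1 being the exceptions. Searched on both strands, the element occurred in 4 of these 8 (Hspa5, Hsp90b1, Calr and Creld2) and in 37 of all 27025 promoters, which is 0.137%. Since the genes were chosen as known targets of the response, this count is a description and no test of enrichment. The Hsp90b1 promoter held the element at a pair of places, once on each strand. Pdia4 held the same element without its last base, a form that was looked for after the full one had not been found there and that 0.429% of all promoters hold. The sites are printed below with the element in capitals, each read on the strand where CCAAT comes first (GRCm38.p6).
Hspa5 (chr2:34772020-34772049, plus strand): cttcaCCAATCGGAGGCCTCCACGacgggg
Hsp90b1, distal (chr10:86705632-86705661, minus strand): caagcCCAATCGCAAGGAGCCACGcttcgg
Hsp90b1, proximal (chr10:86705528-86705557, plus strand): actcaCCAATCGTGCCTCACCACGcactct
Calr (chr8:84847070-84847099, plus strand): atgggCCAATGAGGGTCGACCACGcgttgt
Creld2 (chr15:88819514-88819543, minus strand): gtggaCCAATTGAGGCTCGCCACGagaagc
Pdia4, shortened element (chr6:47813597-47813626, plus strand): gaccaCCAATCACGGGCTGCCACtcggttt
Distances are counted from the RefSeq start, which lay 120 bases inside the Hspa5 gene of the count table, 65 bases inside Hsp90b1 and 3 bases inside Calr, so the site of Hspa5 falls within the gene as counted. The site of Hspa5 began 65 bases before the RefSeq start and that of Calr lay 162 to 144 bases before it. The site of Creld2 lay 126 to 108 bases before the start, the shortened one of Pdia4 107 to 90 bases before it, and the pair in Hsp90b1 at 212 to 194 and 107 to 89 bases before it. The 9 bases between the ends differed from gene to gene, yet 6 or 7 of them were G or C at every site. Xbp1, Dnajb9 and Sdf2l1 held neither form in these windows, which says only that these letters are not there.

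A second element, ERSE-II (ATTGG and CCACG with 1 base between them), was found in none of the 8 promoters and in 0.0444% of all promoters. The unfolded protein response element TGACGTG, a site for XBP1 and ATF6, was found in Hspa5 alone among the 8, against 2.22% of all promoters. It lay 157 to 151 bases before the start of Hspa5, and the stretch that holds it is printed with the element in capitals (chr2:34771840-34771969, plus strand, exons left out).
Hspa5, 250 to 121 bases before the start: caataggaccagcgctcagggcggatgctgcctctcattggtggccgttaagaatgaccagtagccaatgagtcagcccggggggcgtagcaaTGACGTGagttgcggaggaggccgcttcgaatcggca
For Hsp90b1 the stretch with both copies of the ERSE is shown (chr10:86705510-86705694, minus strand), and for Pdia4, the gene that passed the test described next, the whole stretch before the start (chr6:47813513-47813762, minus strand), with the elements in capitals. A copy on the opposite strand appears there as its reverse complement.
Hsp90b1, 250 to 66 bases before the start: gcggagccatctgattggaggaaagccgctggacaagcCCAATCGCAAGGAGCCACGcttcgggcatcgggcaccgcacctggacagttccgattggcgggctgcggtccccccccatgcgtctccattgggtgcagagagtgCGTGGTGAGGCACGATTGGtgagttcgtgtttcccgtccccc
Pdia4, 250 to 1 bases before the start: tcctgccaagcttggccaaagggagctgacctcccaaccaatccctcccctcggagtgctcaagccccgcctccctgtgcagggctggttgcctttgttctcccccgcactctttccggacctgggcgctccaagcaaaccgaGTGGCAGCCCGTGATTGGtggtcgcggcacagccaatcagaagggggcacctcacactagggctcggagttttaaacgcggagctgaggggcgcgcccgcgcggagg

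The levels of the 10 genes were first set in order, in CPM, which are counts scaled to the size of the library. Per kilobase of exon, Calr was the highest with 117 ± 15.1 CPM per kb (mean ± SD over 16 libraries), followed by Hsp90b1 with 56.4 ± 8.51 and Hspa5 with 53.5 ± 8.07. The order of these last 2 genes did not hold in every library, since Hsp90b1 was the higher of them in 11 of 16. Xbp1 (27.8 ± 3.98 CPM per kb) and Dnajb9 (24.6 ± 4.37) formed a middle tier and held their order in 12 of 16 libraries, and Dnajb9 lay above the next gene, Hyou1, in 15 of 16. Hyou1 (16.2 ± 1.93), Pdia4 (15.5 ± 3.72), Sdf2l1 (13.3 ± 1.66), Manf (12.2 ± 1.97) and Creld2 (11.1 ± 1.75 CPM per kb) lay close together, with neighbours in that order exchanged in 4 to 6 libraries. All 10 were well expressed, Creld2 lying above 71.5% and Calr above 97.8% of the genes tested. Between libraries Pdia4 varied most, with a coefficient of variation of 23.9%, and Hyou1 least, with 11.9%.

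**Figure D1:**
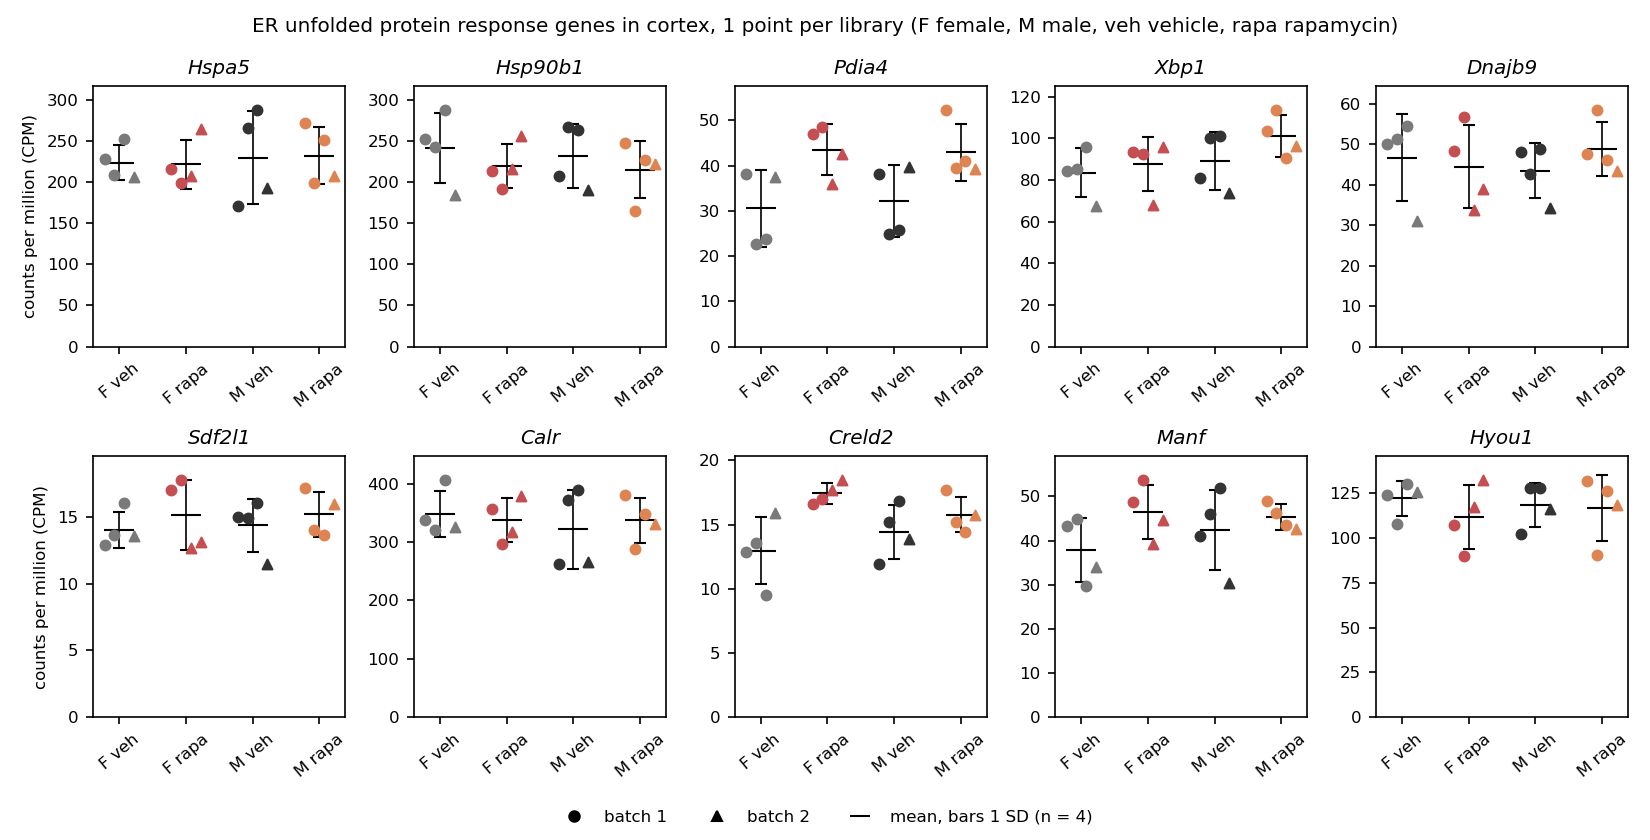
CPM (y axis, from 0) of the 10 genes in the 4 groups (x axis), with 1 point per library, circles for batch 1, triangles for batch 2, and a bar with 1 SD at the mean of each group. Pdia4 is the gene in which vehicle libraries fall to 22.6 to 25.7 CPM while no rapamycin library lies under 36.01, and the triangles of Dnajb9 lie at 31.0 to 43.4 against 42.7 to 58.6 for the circles.

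To ask whether the diet moved the response, vehicle- and rapamycin-treated mice of both sexes were compared with terms for sex and batch. Of the 10 genes 1, Pdia4, differed, being 1.38-fold higher with rapamycin (log2 fold change 0.46, SE 0.13; adjusted p = 0.0322, edgeR quasi-likelihood test with Benjamini-Hochberg adjustment), whereas BiP, GRP94, calreticulin and the transcription factor Xbp1 did not pass. One call among 10 genes has to be read against the background, in which 2205 of 16553 genes (13.3%) differed, 6.46% of all genes being higher and 6.86% lower. The rise of Pdia4 was under the 1.5-fold limit that defines a differentially expressed gene in the study and that 2.26% of all genes passed together with the adjusted p. Over the 10 genes the median log2 fold change was 0.12, with 8 positive and 2 negative values, and that of all genes was 0.02.

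Pdia4 (GRCm38, as all gene positions here, chr6:47796141-47813430, minus strand) encodes ERp72, a protein disulfide isomerase of the ER. In female vehicle mice 1 to 4 it measured 38.2, 22.6, 23.8 and 37.5 CPM, and in female rapamycin mice 1, 2, 4 and 5 it measured 47.1, 48.6, 36.01 and 42.6 CPM. In the libraries labelled male, vehicle gave 38.2, 24.9, 25.7 and 39.8 CPM and rapamycin 52.4, 39.4, 40.9 and 39.2 CPM, the last being that of the library whose reads go against its label. The treatments overlapped: 4 vehicle libraries, replicates 2 and 3 of each sex, lay below every rapamycin library, while the other 4 reached 37.5 to 39.8 CPM, inside the rapamycin range. The means were 31.3 ± 7.64 CPM with vehicle and 43.3 ± 5.54 CPM with rapamycin (SD, n = 8 each), and the 95% interval of the fold was 1.13 to 1.68. The rise was present in each sex taken alone (log2 0.50 in females, 0.43 in males) without passing the adjusted test there. Within batch 1 rapamycin exceeded vehicle by 0.69 in mean log2 CPM (5 against 6 libraries), and within batch 2 by 0.02 (3 against 2 libraries), so the difference was seen in batch 1. Leaving out 1 library at a time kept the call in 8 of 16 fits, with log2 fold changes of 0.41 to 0.53. The libraries whose omission ended it were vehicle 2 and 3 and rapamycin 1 and 2 of each sex, with adjusted p values of up to 0.0762 (edgeR), and the call was also lost without the batch term (adjusted p = 0.089, edgeR).

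Creld2 and Manf, small stress proteins of the ER of which Manf is also secreted as a neurotrophic factor, came next. Creld2 (chr15:88819646-88826681, plus strand) measured 12.8, 13.6, 9.52 and 15.9 CPM in female vehicle mice and 16.6, 16.97, 17.7 and 18.5 CPM in female rapamycin mice. It did not pass the adjusted test in females (adjusted p = 0.113, edgeR, where 0.0121% of all genes passed). In males the vehicle libraries had 11.9, 15.2, 16.8 and 13.9 CPM and the rapamycin libraries 17.7, 15.2, 14.4 and 15.8 CPM. The fitted difference was 0.26 (log2, SE 0.10; adjusted p = 0.0951, edgeR), and the interval of the fold was 1.03 to 1.40. Manf (chr9:106838312-106891979, minus strand) had a difference of 0.24 (log2, SE 0.10; adjusted p = 0.101, edgeR). Its female vehicle libraries measured 43.2, 44.9, 29.7 and 33.9 CPM and its female rapamycin libraries 48.6, 53.7, 39.2 and 44.7 CPM, while the males ranged from 30.5 to 51.9 CPM with vehicle and from 42.5 to 49.0 CPM with rapamycin. Neither gene passed the adjusted test, although both had an unadjusted p under 0.05, as did 5039 of the 16553 genes tested (edgeR). The exons counted for Manf overlapped those of Vprbp and 4930524O07Rik on the other strand by 4.14% and 4.71% of their length, and since the counting did not use strand, reads from these stretches cannot be assigned.

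None of the classical chaperones passed the test between the diets over all libraries (edgeR and DESeq2). Hspa5 (chr2:34771970-34777547, plus strand), which encodes BiP, the ER Hsp70 that holds the stress sensors inactive, had 226 ± 39.7 CPM with vehicle and 227 ± 30.4 CPM with rapamycin (SD, n = 8 each). Its fitted fold was 1.01 with a 95% interval of 0.863 to 1.19, and its libraries ranged from 171 to 288 CPM (median 218) with vehicle and from 198 to 271 CPM (median 212) with rapamycin. Hsp90b1 (chr10:86690209-86705509, minus strand), the ER Hsp90 known as GRP94, had a fold of 0.93 (interval 0.796 to 1.09), with 185 to 288 CPM under vehicle (median 247) and 166 to 257 CPM under rapamycin (median 219). A stretch of 10.3% of its exons overlapped 1810014B01Rik on the other strand, which had a mean of 2.07 CPM. Calr (chr8:84841850-84846934, minus strand), the lectin chaperone calreticulin, which also stores calcium, had a fold of 1.02 (interval 0.882 to 1.18) and ranged from 262 to 406 CPM with vehicle and from 288 to 380 CPM with rapamycin. Hyou1 (chr9:44379490-44392369, plus strand), the nucleotide exchange factor of BiP, had a fold of 0.94 (interval 0.822 to 1.07), with 102 to 130 CPM under vehicle and 90.1 to 132 CPM under rapamycin. For these 4 genes a change of 1.5-fold in either direction lay outside the interval. Changes within the intervals given, in either direction, cannot be told from none. The batches went different ways for these genes: rapamycin minus vehicle, in mean log2 CPM, was -0.28 in batch 1 and 0.30 in batch 2 for Hsp90b1, -0.04 and 0.18 for Hspa5, -0.05 and 0.21 for Calr, and -0.15 and 0.02 for Hyou1.

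The factor and the remaining co-chaperones were also not called. Xbp1 (chr11:5520659-5525893, plus strand) had a fold of 1.12 (interval 0.994 to 1.26; adjusted p = 0.185, edgeR) and ranged from 67.6 to 101.2 CPM with vehicle and from 68.1 to 114 CPM with rapamycin. Dnajb9 (chr12:44205897-44210068, minus strand), the J-domain co-chaperone ERdj4 and a known XBP1 target, had a fold of 1.09 (interval 0.966 to 1.22), and its ranges were 31.0 to 54.6 CPM and 33.7 to 58.6 CPM. Sdf2l1 (chr16:17130138-17132383, minus strand), an ER protein that works with BiP and its J-domain partners, had a fold of 1.09 (interval 0.955 to 1.24), with 11.5 to 16.1 CPM under vehicle and 12.7 to 17.8 CPM under rapamycin.

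**Figure D2:**
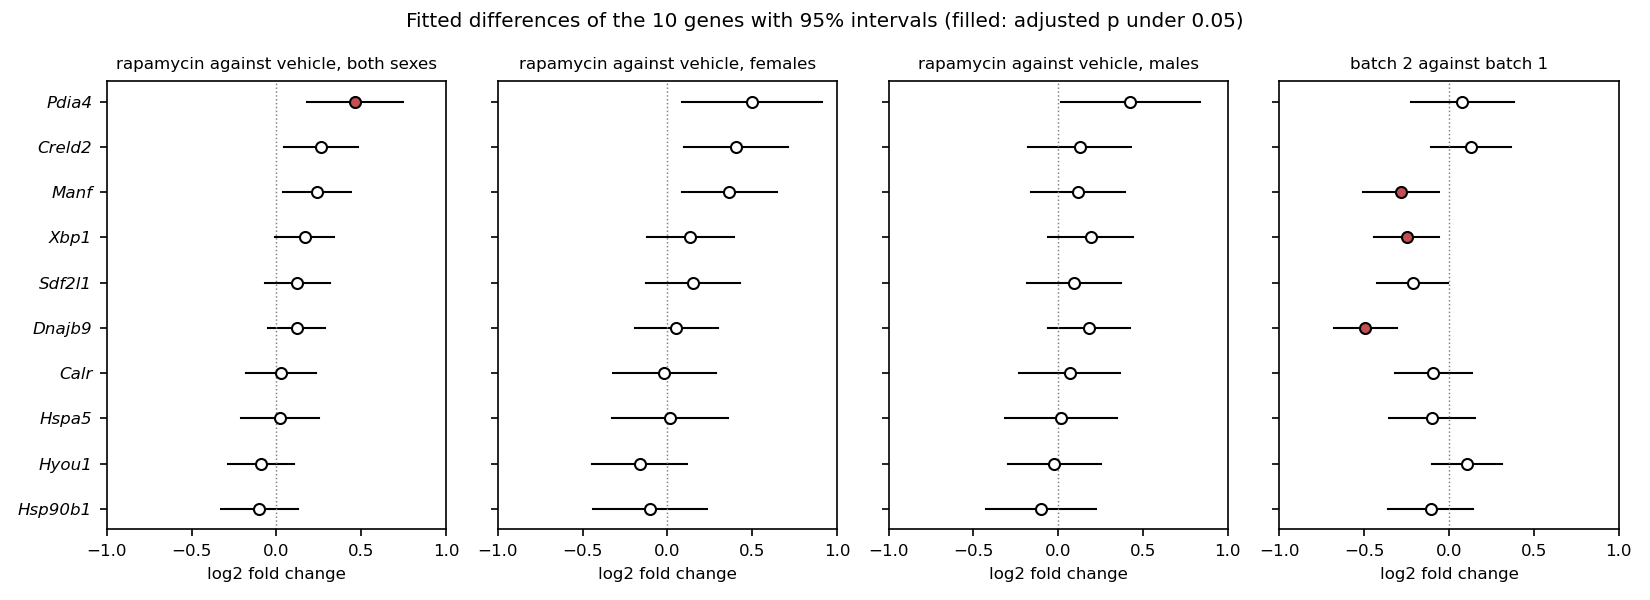
Log2 fold changes (x axis) of the 10 genes (y axis, ordered by the comparison of both sexes) with 95% intervals, for rapamycin against vehicle in both sexes, in females and in males, and for batch 2 against batch 1. Filled points passed an adjusted p of 0.05: Pdia4 for both sexes, and Manf, Xbp1 and Dnajb9 between the batches.

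The sexes were then compared. In females 0 of the 10 genes passed the adjusted test by edgeR and 0 by DESeq2, against 2 genes (0.0121% of all genes) by edgeR and 1487 by DESeq2. By edgeR Pdia4, Creld2 and Manf had an unadjusted p under 0.05 in females, as did 3818 of all 16553 genes. The count was 3 by DESeq2 too, against 3972 of all genes. In males the counts were again 0 by edgeR and 0 by DESeq2, against 0% of all genes by edgeR and 18 genes by DESeq2, with 1 of the 10 at an unadjusted p under 0.05 by each tool (Pdia4 by edgeR). Over all 16553 genes, 1990 by edgeR and 2111 by DESeq2 had such a p in males. The interaction of sex and treatment, which asks whether the diet acted differently in females and males, called 0 of the 10 genes by either tool and 0% of all genes. An unadjusted p under 0.05 was seen in 0 of the 10, and in 360 of all 16553 genes by edgeR. Without the library labelled male rapamycin 4, Pdia4 had a log2 fold change of 0.50 in males (adjusted p = 0.703, edgeR) and an interaction of -0.00412 in place of 0.08, with 0 of the 10 called in males and 0 in the interaction by edgeR, and 1 and 0 at an unadjusted p under 0.05. Over all 16861 genes of that fit, 1154 in males and 528 in the interaction had such a p. The largest interaction among the 10 was that of Creld2, with log2 values of 0.41 (females) and 0.13 (males), a difference of 0.28 with a 95% interval of -0.15 to 0.71. In vehicle-treated mice alone, females and males differed in 0 of the 10 genes by either tool (2 genes, 0.0121% of all genes, by edgeR). An unadjusted p under 0.05 was seen in 0 of the 10, and in 587 of all 16553 genes by edgeR. The log2 differences of the 10 genes between the sexes ran from -0.16 for Creld2 to 0.11 for Calr.

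The batch given in the labels moved more of the 10 genes than the diet. Against batch 1 (11 libraries), batch 2 (5 libraries) had lower Dnajb9 (log2 -0.49, SE 0.09; adjusted p = 0.000551, edgeR), lower Manf (-0.28, SE 0.11; adjusted p = 0.0444, edgeR) and lower Xbp1 (-0.25, SE 0.09; adjusted p = 0.0398, edgeR). These 3 of 10 stand beside 35.5% of all genes called between the batches, so the share was no larger than the background. Dnajb9 measured 31.0, 33.7, 38.9, 34.3 and 43.4 CPM in the batch 2 libraries and from 42.7 to 58.6 CPM in those of batch 1, with 1 library of each batch in the overlap. Its call was kept in all 16 fits that left out a library and under all 6 other settings. Those of Xbp1 and Manf were kept in 7 and 6 of 16 fits, and both were lost when the slope of level on exon length, or the share of mitochondrial reads, was a term, and when replicate 4 of both male groups was left out. The lowest levels of Xbp1, 67.6, 68.1 and 73.5 CPM, were those of batch 2 libraries, namely female vehicle 4, female rapamycin 4 and male vehicle 4. The other 2 libraries of that batch, female rapamycin 5 and the one labelled male rapamycin 4, had 96.0 and 96.4 CPM, near the batch 1 mean of 94.7 CPM.

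Library features that moved with the diet are given here beside these small differences, and their part in them was not tested. The exon length slope, which is positive in a library where long genes read high, had a median of 0.0255 in vehicle libraries (range 0.000395 to 0.1005) and of -0.0244 in rapamycin libraries (-0.127 to 0.0640). Mitochondrial transcripts took 2.64% to 5.47% of vehicle and 3.75% to 6.99% of rapamycin read pairs. Across the 16 libraries log2 CPM went with the slope at Pearson r = -0.75 (Spearman -0.69) for Manf, -0.63 (-0.49) for Dnajb9, -0.61 (-0.48) for Xbp1, -0.44 (-0.59) for Pdia4 and 0.65 (0.32) for Hyou1, and in batch 1 at -0.60, -0.46, -0.28, -0.63 and 0.79. Sdf2l1 had -0.51 (-0.46) and Creld2 -0.37 (-0.35), with -0.31 and -0.60 in batch 1. The chaperones Hsp90b1, Hspa5 and Calr had 0.29 (0.15), 0.11 (0.03) and 0.07 (0.04) over all libraries, but 0.84, 0.48 and 0.46 in batch 1. With the mitochondrial share in batch 1, Hsp90b1, Hyou1, Dnajb9, Pdia4 and Sdf2l1 had r = -0.66, -0.67, 0.70, 0.55 and 0.52. Over all libraries these genes had -0.30, -0.63, 0.64, 0.39 and 0.63, in that order. The remaining members had r from -0.42 to 0.36 with that share in batch 1. With the slope as a term in the fit the log2 fold change of Pdia4 was 0.36 (adjusted p = 0.914, edgeR), and with the mitochondrial share it was 0.39 (adjusted p = 0.637, edgeR), fits in which 0 genes of all were called. What part the slope has in the difference was not tested, since it moves with the treatment. Male vehicle 4 held choroid plexus markers at a summed 1995 CPM, against at most 337 CPM in any other library. Without this library and the one labelled male rapamycin 4 the difference of Pdia4 was 0.54 (log2, adjusted p = 0.0416, edgeR). Of the 10 choroid plexus markers 4 were lower with rapamycin (Kcnj13, Sostdc1, Aqp1 and Cldn2), where 6.86% of all genes were lower. That comparison included male vehicle 4, and its part in these calls was not tested. With vehicle the 4 genes had 2.04 ± 2.67, 4.45 ± 5.18, 3.60 ± 6.84 and 1.96 ± 3.69 CPM, each SD exceeding its mean. In females their log2 fold changes were -1.82, -1.99, -1.30 and -1.89, without passing the adjusted test there (edgeR). Of the other marker lists 1 of 6 astrocyte (Aldoc) and 1 of 5 endothelial markers (Ly6c1) were higher, where 6.46% of all genes were. These genes are named because they passed. Of the astrocyte markers 4 had positive and 2 negative log2 fold changes, and of the endothelial markers 3 and 2. By edgeR 0 of 9 microglial, 0 of 6 oligodendrocyte, 0 of 6 GABAergic and 0 of 7 leptomeningeal markers passed, with 1, 2, 1 and 0 of them at an unadjusted p under 0.05, where 5039 of all 16553 genes had such a p. The part of these cells in the level of Pdia4 was not tested.

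The 10 genes did not move as a block from mouse to mouse. Over 16 libraries the 45 pairs had a median Pearson r of 0.19 between their log2 CPM, with a range of -0.51 to 0.91 and 32 positive values; these values describe the libraries, which share batches and depth, and carry no p. Hspa5, Hsp90b1, Calr and Hyou1 formed a tight set, with r from 0.71 to 0.91 over the 6 pairs, from 0.71 to 0.92 in the 11 libraries of batch 1, and from 0.80 to 0.94 once the terms for sex, batch and treatment were removed. Hspa5 and Calr were the closest pair, at r = 0.91 (Spearman 0.93). Creld2 and Manf formed another pair, with r = 0.59 over all libraries, 0.94 in batch 1 and 0.84 with the terms for sex, batch and treatment removed. Xbp1 and Dnajb9 went together at r = 0.72 over all libraries, yet at 0.21 within batch 1. Pdia4, the gene that was called, went with none of them closely: its r with the other 9 ran from -0.51 with Hsp90b1 to 0.48 with Creld2. These sets were picked after their values were seen and so were given no test.

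**Figure D3:**
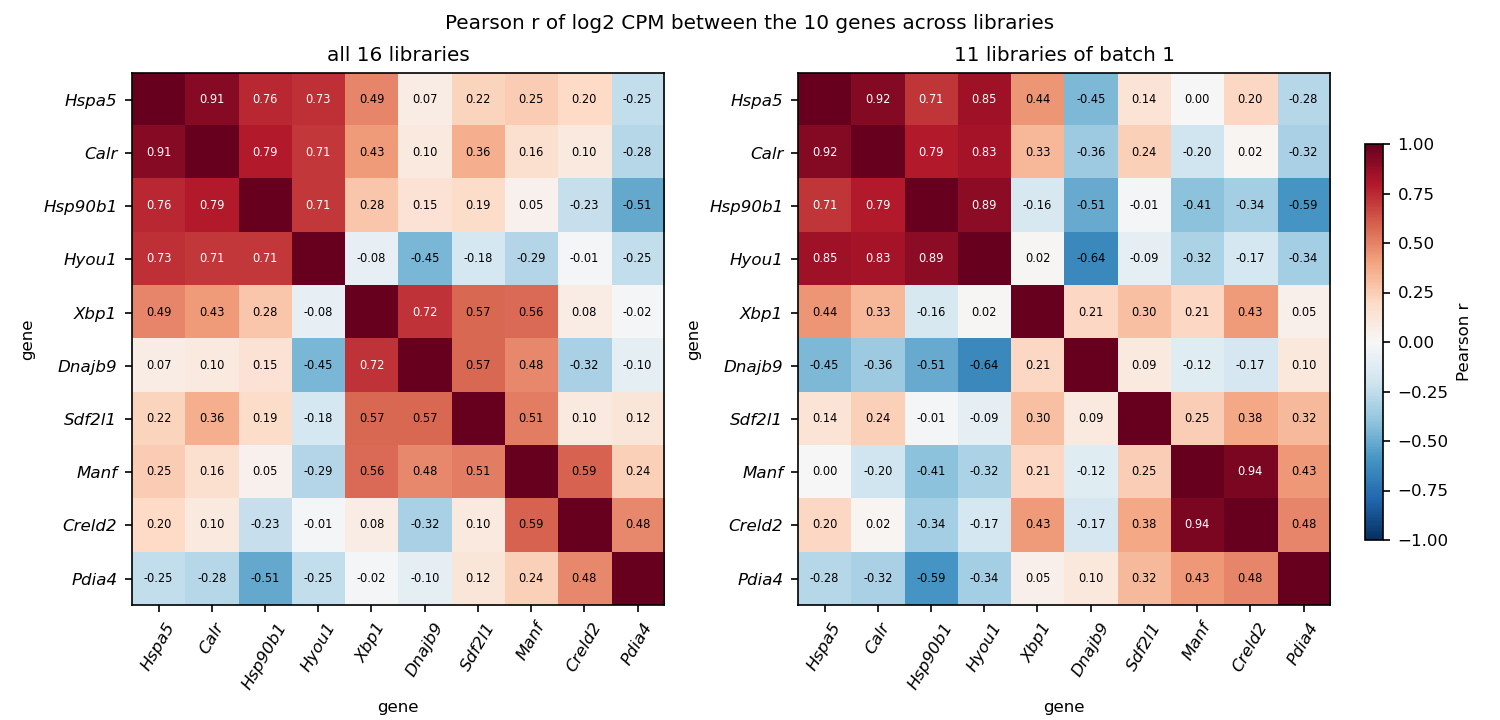
Pearson r of log2 CPM between each pair of the 10 genes (both axes), over all 16 libraries on the left and over the 11 libraries of batch 1 on the right, with blue for negative and red for positive values. The upper left square of Hspa5, Calr, Hsp90b1 and Hyou1 holds r of 0.71 to 0.92 in both panels, Manf and Creld2 reach 0.94 in batch 1, and the row of Pdia4 has no value over 0.48.

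The chaperone set ran high and low in the same libraries across diets. Its mean z-score was highest in female vehicle 3 (1.19), male vehicle 3 (1.16), female rapamycin 5 (0.98), male rapamycin 1 (0.97) and male vehicle 2 (0.96), and lowest in male rapamycin 2 (-1.47), male vehicle 1 (-1.30) and female rapamycin 2 (-1.19). Hspa5 measured 252, 288, 264, 271 and 266 CPM in the former and 198, 171 and 198 CPM in the latter. Each diet and each sex thus had libraries at both ends. In batch 1 these genes also went with the exon length slope, at the values given above, and its part in their variation was not tested.

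Several genes of the circadian clock, looked at after Ciart and Nr1d2 had appeared among the genes most opposite to Hsp90b1 and Hspa5, ran against the chaperone set. Dbp and Ciart, output genes of the clock, had r = -0.87 (Spearman -0.82) and r = -0.87 (Spearman -0.90) with its mean z-score over 16 libraries, -0.92 and -0.89 in batch 1, and -0.82 and -0.83 without the 2 libraries farthest from the median of the set. These values carry no p. The repressors Nr1d2 and Nr1d1 had r = -0.84 and -0.75, and Per3 had -0.66, whereas Arntl and Npas2, which belong to the activating arm and peak in the opposite phase, had r = 0.65 and 0.66. Others on the list went with the set less closely: Clock, the partner of Arntl, had r = 0.32 (0.06 without the 2 farthest libraries), Cry1 -0.11 (0.06 without them), Tef -0.34, Hlf -0.41, Per2 -0.43 and Per1 -0.61. Bhlhe41 had -0.67. Cirbp and Rbm3, RNA-binding proteins induced by cold, had r = -0.79 and -0.69. Single genes went further: Hsp90b1 and Ciart had r = -0.94 over all libraries and -0.98 in batch 1. In CPM, Dbp measured 30.6, 37.2, 42.9, 44.3 and 29.5 in the 5 libraries highest for the set and 91.1, 70.6 and 86.1 in the 3 lowest. None of these 16 genes differed between vehicle and rapamycin at an adjusted p of 0.05 by edgeR, where 13.3% of all genes did. An unadjusted p under 0.05 was seen in 4 of them (Clock, Tef, Cirbp and Rbm3), and in 5039 of all 16553 genes. Pdia4 went with Tef at r = 0.79, with Dbp at 0.59 and with Arntl at -0.66. With Nr1d2, Cry1 and Hlf its r was 0.10, -0.04 and -0.26. These values are over all 16 libraries, so they include any difference between the diets. The hour at which each mouse was killed is not given in the sources used here.

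**Figure D4:**
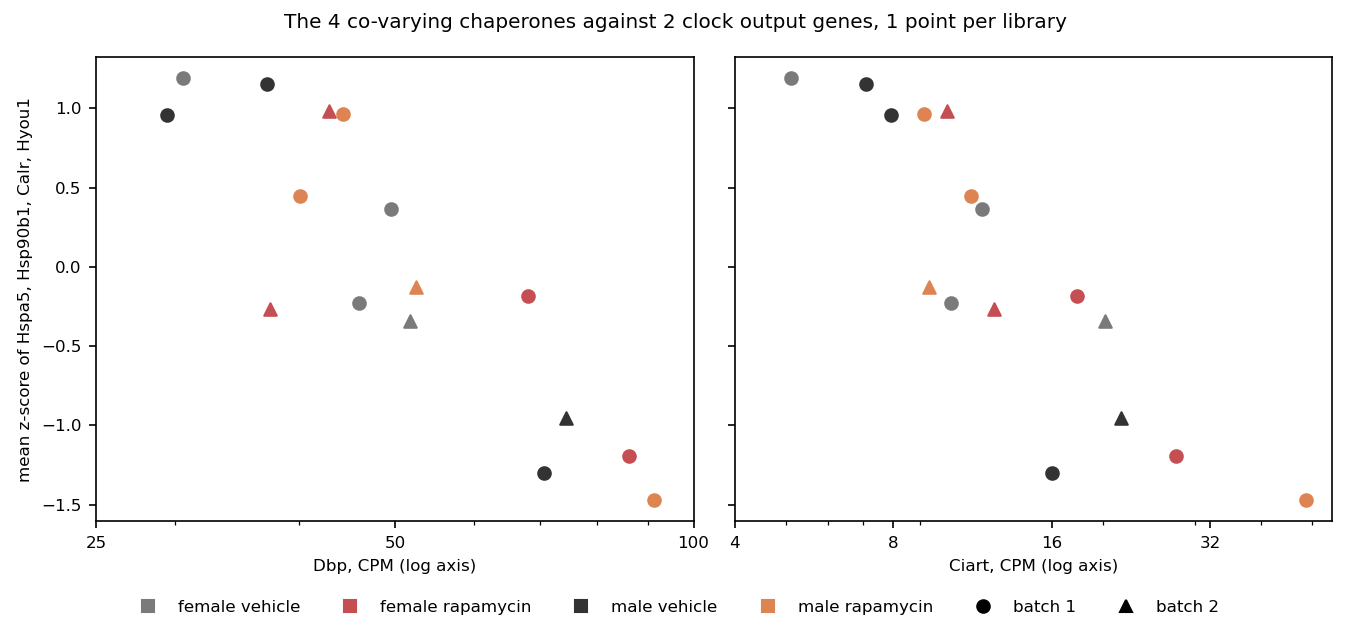
Mean z-score of Hspa5, Hsp90b1, Calr and Hyou1 (y axis) against the CPM of Dbp and of Ciart (x axes, log scale), with 1 point per library, coloured by group and shaped by batch. In both panels the points fall from upper left to lower right (r = -0.87 each over 16 libraries), and each diet has points at both ends.

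The gene whose variation was most like the mean of the 10, once the terms for sex, batch and treatment were removed, was Pdia6, another disulfide isomerase of the ER (r = 0.91). It was followed by Chst10, Vat1, Arhgdia, Hnrnpc, Rpn2, Galnt18, Senp8, Nhlrc1 and Anxa8 at r of 0.86 to 0.83 over 16 libraries. Pdia6 was not called with rapamycin (log2 0.05), and its promoter holds the full ERSE. The genes most like Pdia4 were Hif3a (r = 0.88), Prr5 (0.85) and Pdk2 (0.83), and with the terms for sex, batch and treatment removed these values were 0.80, 0.80 and 0.67. Other members also had nearest genes from outside the ER lists, such as Fam103a1 for Dnajb9 (r = 0.97) and Mdga1 for Hyou1 (r = 0.95). Hif3a, a hypoxia-inducible factor subunit, and Pdk2, a kinase that restrains pyruvate dehydrogenase, were higher with rapamycin (log2 0.95 and 0.31, adjusted p = 0.0462 and 0.0145, edgeR). Prr5 did not pass (log2 0.49, adjusted p = 0.0504, edgeR). These genes were picked by r with Pdia4 over libraries of both diets. A difference with rapamycin is thus partly built into the choice.

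The wider ER folding machinery was examined in 5 lists with 50 genes, 49 of them tested. With rapamycin 4 were higher, 5 lower and 40 not called, where 6.46% of all genes were higher and 6.86% lower, and the median log2 fold change was 0.05. Among the 4 stress sensors, Atf6 was lower (log2 -0.43, SE 0.10; adjusted p = 0.0187, edgeR), from 90.4 ± 12.2 to 66.7 ± 10.7 CPM, and so was Eif2ak3, which encodes PERK (-0.29, SE 0.08; adjusted p = 0.0331, edgeR). Ern1, which encodes IRE1, had a log2 fold change of -0.33 (adjusted p = 0.0682, edgeR) and Atf6b, the paralogue of Atf6, one of 0.05. Of the PERK branch 0 of 6 genes passed by edgeR, with 1, Ddit3, at an unadjusted p under 0.05, as were 5039 of all 16553 genes. Ddit3, the apoptotic factor CHOP, had a log2 fold change of 0.19 (adjusted p = 0.112, edgeR), Atf4, the factor translated when PERK is active, one of 0.10, and the remaining 4, Trib3, Ppp1r15a, Ppp1r15b and Chac1, lay between -0.19 and 0.14.

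Among 14 folding enzymes and co-chaperones 2 were higher, the prolyl isomerases Ppib (log2 0.34, SE 0.08; adjusted p = 0.0153, edgeR) and Fkbp2 (0.28, SE 0.08; adjusted p = 0.0310, edgeR). A single one was lower, Uggt1 (-0.28, SE 0.09; adjusted p = 0.0394, edgeR), the glucosyltransferase that marks misfolded glycoproteins for another round of folding. The most abundant ones, Canx, Pdia3, Pdia6 and P4hb, had log2 fold changes of -0.05, 0.02, 0.05 and 0.12 and did not pass. Of 12 genes of ER-associated degradation, Sel1l, the partner of the ligase HRD1, and Edem3, a mannosidase that marks glycoproteins for disposal, were lower (-0.30 and -0.28; adjusted p = 0.0380 and 0.0459, edgeR). Herpud1, a responsive stress target on that list, had a log2 fold change of 0.19 and did not pass. Of 13 tested genes of translocation and retrieval, Sec61b, a subunit of the translocon, and Spcs2, a subunit of the signal peptidase, were higher (0.30 and 0.24; adjusted p = 0.0459 and 0.0438, edgeR). Between the batches 11 of the 13 differed, where 35.5% of all genes did. The batch calls were 5 of 14 for folding enzymes, 2 of 12 for degradation, 2 of 6 for the PERK branch and 1 of 4 for the sensors. The paralogues of the 10 genes (8 genes, among them the cytosolic Hspa8 and Hsp90ab1 and the mitochondrial Hspa9) gave 0 calls by edgeR, with 1, Sdf2, at an unadjusted p under 0.05, as were 5039 of all 16553 genes.

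The direction of these pathway calls went with the length of the genes. The 5 lower genes had 6026 to 12853 bases of exon and the 4 higher ones 663 to 4221 bases, and over all genes the called higher ones had a median of 1945 bases and the called lower ones of 7511 bases, against 3766 bases for all genes tested. With the exon length slope as a term, Uggt1, Edem3, Sel1l and Sec61b turned to log2 fold changes of 0.03, 0.03, 0.02 and -0.03, Eif2ak3, Spcs2 and Fkbp2 came to -0.03, 0.03 and 0.02, and Atf6 and Ppib to -0.35 and 0.33, with 0 of all genes called in that fit. The part of exon length in these calls was not tested. Over the fits that left out 1 library, Atf6 and Ppib kept their calls in 16 of 16, and the others in 3 to 9 of 16. Without the batch term Atf6 lost its call (adjusted p = 0.0616, edgeR), and in batch 1 only both lost it (adjusted p = 0.0801 for Atf6 and 0.0583 for Ppib, edgeR). When replicate 4 of both male groups was left out, all of the 9 but Atf6 and Ppib were lost.

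**Figure D5:**
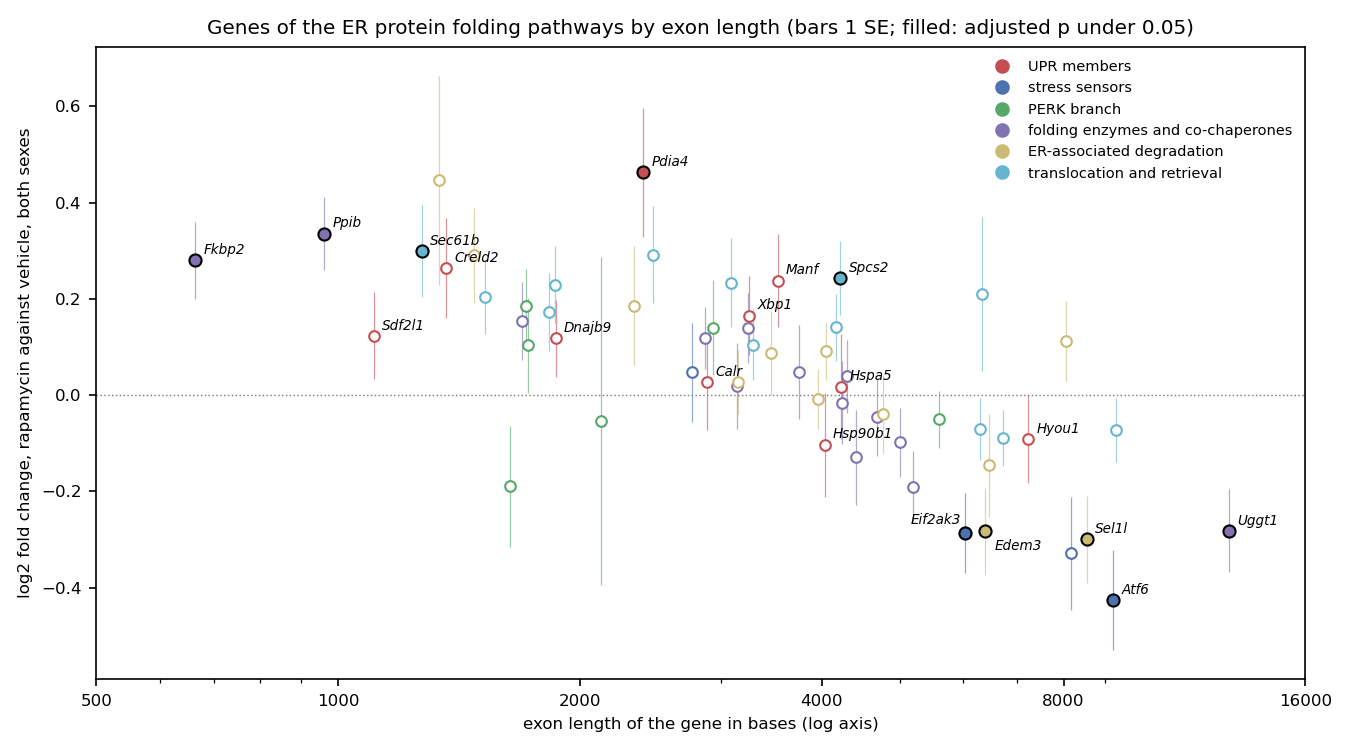
Log2 fold change with rapamycin in both sexes (y axis, bars 1 SE) of the 10 genes and the 49 other tested genes of ER folding against their exon length in bases (x axis, log scale), coloured by list, with filled points for an adjusted p under 0.05. The filled points on the right, from Eif2ak3 at 6026 to Uggt1 at 12853 bases, lie below 0, and those from Fkbp2 at 663 to Spcs2 at 4221 bases lie above it, Pdia4 being the highest of them at 0.46.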

How the data were processed

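Cortex RNA of 16 5xFAD mice was sequenced as read pairs. Per the labels and the methods of the study, the authors checked the reads with FastQC 0.11.9, trimmed them with Trim Galore and Trimmomatic 0.39 (the first 10 bases removed), aligned them to mm10 (GRCm38) with HISAT2 2.2.1 and counted them per gene with featureCounts 2.0.3. The deposited values are raw counts per gene and library, not normalized; 4 further tables, 1 per group, were not used. The groups and the batch were taken from the labels.

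Genes with low counts were removed (filterByExpr of edgeR, minimum count 10), which left 16553 of 47593 genes with 99.9% of the read pairs. CPM values, counts scaled to the TMM-adjusted library size (log2 CPM with a prior count of 2) were computed with edgeR 4.0.16 in R 4.3.3. The quasi-likelihood test was fitted on the whole table with sex, batch and treatment for both sexes, and with group and batch for each sex, for the interaction and for female against male vehicle mice. Benjamini-Hochberg adjustment ran over all genes tested, with a threshold of 0.05. The scripts were tested on simulated counts. Intervals are at 95%. The p values measure the spread between libraries, which the labels name as biological replicates; a sentence of the study on pooled samples is at odds with that. Counts of different libraries differed by more than sampling noise.

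The exon length slope is the slope, over genes, of a library's log2 CPM relative to the mean library on log2 exon length. Promoters were searched as text in the RefSeq promoter table (GRCm38.p6). The alternatives were DESeq2 1.42.0, RLE normalization, no filter, no batch term, the replicate number as a block, the slope or the mitochondrial share as a term, batch 1 only, leaving out male vehicle 4 and male rapamycin 4, and leaving out each library. The text names the 10 genes, every called gene of the pathway lists, examples by mean CPM, and the 10 genes most like the mean of the members. The members and lists were chosen with earlier results of these data known, and the clock genes after the correlations had been seen. The result of 1 marker list is not reported here. Figures were drawn with matplotlib 3.10.9.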

Additional observations from a re-analysis of the deposited data

Results flagged for a closer look

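Of 40 sets of 4 libraries (10 genes in 4 groups), 3 had a library far from the others by Dixon's ratio at its 95% limit, where chance gives about 1 in 20. Pdia4 measured 52.4 CPM in male rapamycin 1, against 39.2 to 40.9 CPM in the other libraries of the group, and without that library the call of Pdia4 was lost. Xbp1 measured 68.1 CPM in female rapamycin 4, against 92.6 to 96.0 CPM in the others, and Dnajb9 measured 31.0 CPM in female vehicle 4, against 50.03 to 54.6 CPM. The libraries low for Xbp1 and Dnajb9 belong to batch 2, in which both genes were lower.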

How the results depend on the processing

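For both sexes, 1 of the 10 genes was called, and 0 were called without the batch term, with the exon length slope or with the mitochondrial share. Over all genes 2205 were called, against 142 without the batch term, 1298 with the replicate block, 0 with the slope (965 at an unadjusted p under 0.05), 0 with the mitochondrial share (1318 unadjusted), 1240 in batch 1 only and 1040 without male vehicle 4 and male rapamycin 4. Leaving out 1 library gave 719 (without female rapamycin 1) to 3352 genes (without female rapamycin 4) and 0 to 1 of the 10. Without the filter Pdia4 was called in females, 1 of the 10, beside 1678 of 30248 genes in that fit. Between the batches 3 of the 10 were called, beside 5884 of all genes. The count was 1 with the slope, with the mitochondrial share or without male vehicle 4 and male rapamycin 4. Those fits called 2083, 1703 and 4901 of all genes. When 1 library was left out, 1 to 3 of the 10 were called, beside 4265 to 6211 of all genes. With the slope Uggt1 (0.0335), Edem3 (0.0333), Sel1l (0.0240) and Sec61b (-0.0340) reversed on the log2 scale. The cause was not tested. Of 1470 values of the 10 genes under the alternatives, 36 lost a call, 2 gained one and 0 called values reversed. The replicate numbers did not pair the libraries: 18 of 21 same-numbered pairs had r over 0.1, 7 with batch removed, and 30 of 42 comparisons were best with the own number, 12 with batch removed. With that block Pdia4 kept 0.46 (adjusted p = 0.0307, edgeR), and Uggt1, Edem3, Sec61b, Eif2ak3, Spcs2 and Fkbp2 lost their calls. A biological coefficient of variation of 0.1858 between libraries limits what 4 libraries a group can show.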
